A study of Mus musculus with 23 samples.

Results

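The effect of dietary fat on the testis transcriptome was examined in CAST/EiJ, an inbred strain derived from wild mice. The comparison took every testis library of this strain, 7 of the 23 libraries in the series: 4 from males on 44% fat and 3 from males on 10% fat. All were wild-type males kept without other treatment. Both diets contained fiber, the 44% fat diet was also rich in sugar, and each was fed from 6 weeks of age until tissue was taken at 16 weeks. The other 16 libraries came from C57BL/6J and NZO/HlLtJ males on the same diets. Nothing in the labels says that each library came from a separate animal, so the p-values below measure the spread between these libraries, which may in part be technical. The diets differed in fat and, per the labels, in sugar, and the 2 cannot be told apart here.

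The testis makes sperm in seminiferous tubules, where spermatogonia divide, spermatocytes pass through meiosis and spermatids are remodelled into sperm, all in contact with Sertoli cells. Leydig cells between the tubules import or make cholesterol and turn it into testosterone under control of luteinising hormone. Sperm leave through the efferent ducts into the epididymis, which lies against the testis beside a fat pad. In bulk RNA from whole testis, fewer cells of a type and less RNA per cell cannot be told apart.

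Library totals were 35.1 to 78.7 M (M, 1e+06) estimated counts on 44% fat and 33 to 38.2 M on 10% fat. Values are given as counts per M after TMM scaling (CPM), with 3 counts worth 0.0398 to 0.0887 CPM in the libraries on 44% fat and 0.0808 to 0.094 CPM in those on 10% fat. The tissue label was borne out by the marker genes in every library: the protamine gene Prm2, which packs sperm DNA, stood at 3418 to 3719 CPM on 44% fat and 3401 to 3829 CPM on 10% fat. The Sertoli cell factor Sox9 was at 19.9 to 22.7 CPM on 44% fat and 18.3 to 21.1 CPM on 10% fat. The Leydig cell hormone gene Insl3 was at 69.8 to 84.7 CPM on 44% fat and 66.6 to 103 CPM on 10% fat.

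Single libraries were checked for transcripts of neighbouring tissue. The library of 44% fat replicate 2 held 15 genes of at least 1 CPM there whose value was at least 4 times the highest of the other 6 libraries, against 2 in 44% fat replicate 1, 1 in 10% fat replicate 2 and 0 in each of the other 4. Crisp1, a protein that the epididymis secretes onto passing sperm, was at 0.0796, 99, 0 and 0 CPM in 44% fat replicates 1 to 4, against 0.0899, 0.188 and 0.0808 CPM on 10% fat. That 1 library was 527 times the highest of the others. Cuzd1 stood at 3.79, 41, 3.61 and 2.9 CPM on 44% fat, against 3.42, 3.57 and 3.18 CPM on 10% fat. Spink8, a protease inhibitor gene, stood at 3.62, 24.5, 3.81 and 4.18 CPM on 44% fat, against 3.84, 4.86 and 4.88 CPM on 10% fat. Both lay at 2.9 to 4.88 CPM in the other 6 libraries, and 44% fat replicate 2 alone stood above them. The other 12 genes were Prom2, Serpina16, Cd52, Wfdc16, Abcb5, Gpr82, Ces5a, Cwh43, Serpina1f, Clca3a2, Cldn1 and Pax8, the last a transcription factor of excurrent duct epithelium.

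Of 28 genes listed for epididymis and efferent ducts, 13 were in the count table and 7 were tested. Their summed level was 4.55, 104, 3.55 and 4.12 CPM on 44% fat, against 4.56, 5.58 and 2.83 CPM on 10% fat, and Crisp1 made up nearly the whole sum in replicate 2. Defb15 had 0 counts in all 7 libraries, Cst11 had 0 counts in all but 10% fat replicate 2 with 1 count, and Pax2 lay at 2.75 to 3.79 CPM on 44% fat and 2.29 to 4.39 CPM on 10% fat. The diet estimate for Crisp1, a log2 fold change of 7.68 with a standard error (SE) of 2.67, therefore rests on 1 library (adjusted p 1 by edgeR). With that library and 10% fat replicate 3 both left out it was -1.70. Gpx3, the secreted glutathione peroxidase, was at 9.5, 39, 6.77 and 4.41 CPM on 44% fat, against 8.36, 9.99 and 8.46 CPM on 10% fat, and again replicate 2 alone stood out. This gene was chosen after its values were seen.

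Transcripts of fat cells were spread over several libraries. Car3, a carbonic anhydrase abundant in adipocytes, was at 0.517, 7.53, 1.18 and 0.61 CPM in 44% fat replicates 1 to 4, against 4.56, 8.18 and 11.9 CPM on 10% fat. Lpl, the lipase that frees fatty acids from lipoproteins, was at 1.92, 8.38, 3.46 and 2 CPM on 44% fat, against 7.97, 6.86 and 11.9 CPM on 10% fat. Fabp4, the fatty acid binding protein of adipocytes, was at 1.54, 7.58, 2.22 and 1.83 CPM on 44% fat, against 2.73, 5.7 and 7.71 CPM on 10% fat. For all 3 genes, 44% fat replicates 1, 3 and 4 lay below every library on 10% fat, while 44% fat replicate 2, the library with epididymal transcripts, lay among those on 10% fat. Cfd, which encodes complement factor D secreted by fat cells, followed the same order, at 0.0398, 2.74, 0.591 and 0.319 CPM on 44% fat and 1.38, 3.07 and 4.72 CPM on 10% fat.

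**Figure D1:**
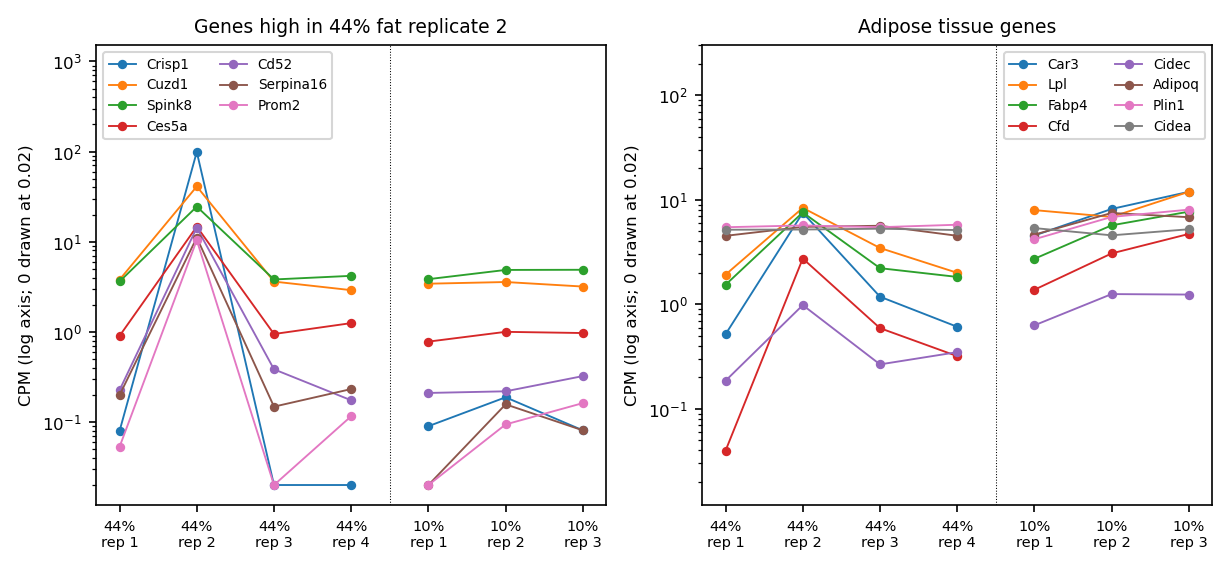
CPM on a log axis (0 drawn at 0.02) in each of the 4 libraries on 44% fat and the 3 on 10% fat, for 7 of the genes high in 44% fat replicate 2 (left panel) and 8 adipose tissue genes (right panel); lines join libraries of a diet only to guide the eye. In the left panel Crisp1 reaches 99 CPM in 44% fat replicate 2 and at most 0.188 CPM elsewhere; in the right panel Car3, Lpl, Fabp4, Cfd and Cidec in 44% fat replicate 2 lie near the libraries on 10% fat, while Adipoq, Plin1 and Cidea lie near 5 CPM in most libraries.

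Over all genes, the diets could not be told apart at the level of single genes. Of 22873 genes tested, 0 (0%) passed an adjusted p of 0.05 in either direction (edgeR quasi-likelihood test, Benjamini-Hochberg adjustment), and the smallest adjusted p was 0.28. At an unadjusted p under 0.05 there were 916 genes (4%), of which 493 (2.16%) had a higher and 423 (1.85%) a lower estimate on 44% fat. DESeq2 called 3 genes and limma on the authors' log2 values called 1. Genes whose libraries of the diets did not overlap numbered 547 (2.39%) with 44% fat above and 664 (2.9%) with 44% fat below. The median log2 fold change was 0, near which the TMM scaling places the bulk of genes by design. Without 44% fat replicate 2 and 10% fat replicate 3, the libraries with the highest scores on the first principal component, 0 genes passed as well, and 1000 had an unadjusted p under 0.05.

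For most expressed genes the intervals of the diet estimate were narrow. Each holds for 1 gene at a time and rests on a spread estimated over all 23 libraries. Where libraries were not separate animals, the intervals do not bound a diet effect between animals. Of the 9924 genes with a mean of at least 10 CPM, 9860 (99.4%) had a 95% interval of the fold change that lay wholly within 1.5-fold in either direction, and the median SE was 0.0694 on the log2 scale. Among the 6714 genes of 1 to under 10 CPM, 73.2% of the intervals lay within 1.5-fold and 96.8% within 2-fold. Below 1 CPM the median SE was 0.473, and 1.54% of the intervals lay within 1.5-fold and 26.4% within 2-fold, so that differences of 2-fold were often not detectable there. The genes of at least 10 CPM with an estimate beyond 1.5-fold were Crisp1, Gpx3, Gm5593, Rn7sk and Sgsm3 (ENSMUSG00000103565). Gm5593 was at 15.6, 13, 16.2 and 17.3 CPM on 44% fat, against 12, 12.4 and 4.74 CPM on 10% fat, where 10% fat replicate 3 stood apart from the rest.

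**Figure D2:**
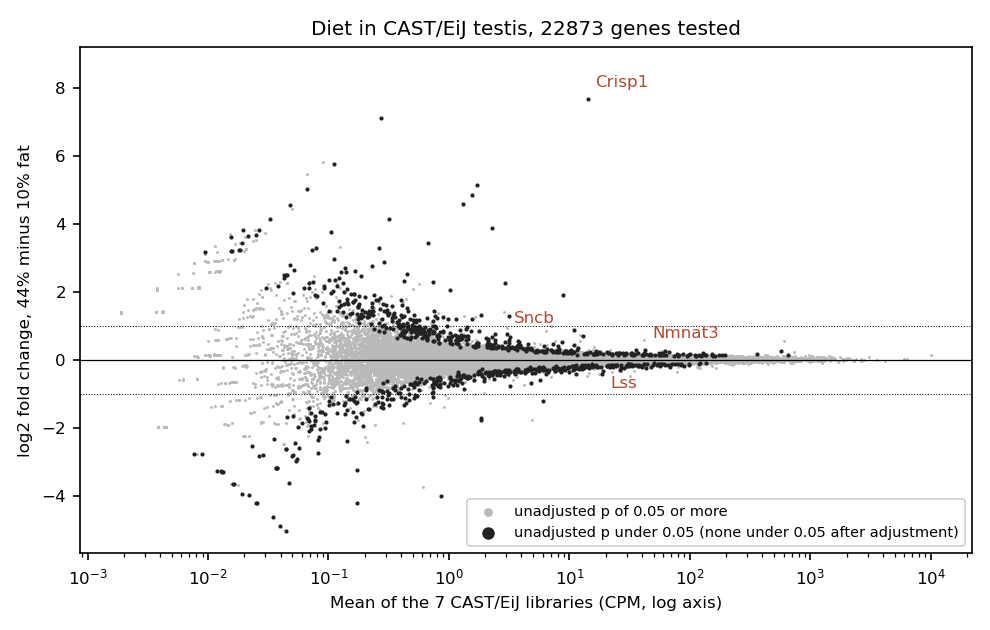
Log2 fold change of 44% over 10% fat (y axis) against the mean of the 7 CAST/EiJ libraries in CPM (x axis, log scale), 1 point per tested gene; black points have an unadjusted p under 0.05 and dotted lines mark 2-fold. The cloud narrows with level: of the genes of at least 10 CPM, 99.4% have intervals within 1.5-fold, and Crisp1 at 7.68 is the only estimate past 2-fold among them.

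A pair of genes shared the smallest adjusted p, and neither has an assigned function. RP24-344N22.3 was at 2.25, 1.5, 2.75 and 1.63 CPM on 44% fat, against 0.899, 0.815 and 0.943 CPM on 10% fat, a log2 fold change of 1.20 (SE 0.23). A930003O13Rik was at 0.584, 0.466, 0.917 and 0.348 CPM on 44% fat, against 0.12, 0.282 and 0.162 CPM on 10% fat, a log2 fold change of 1.62 (SE 0.33). In both, every library on 44% fat lay above every library on 10% fat, where 2.39% of all genes lay wholly higher. The adjusted p was 0.28 for both by the edgeR quasi-likelihood test.

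The few genes that another tool or 1 library fewer called were at 3.18 CPM or less in every library. Gm3095 and Mark1-ps3 lay under 1 CPM, while RP24-344N22.3 was at 1.5 to 2.75 CPM on 44% fat. Without 44% fat replicate 3, Gm3095 (adjusted p 0.00307) and Mark1-ps3 (adjusted p 0.014) passed the edgeR test. Gm3095 was at 0, 0, 0.177 and 0 CPM on 44% fat, against 0.3, 0.251 and 0.485 CPM on 10% fat. Its libraries did not overlap, where 2.9% of all genes lay wholly lower on 44% fat. Mark1-ps3, a pseudogene, was at 0.942, 0.776, 0.177 and 0.377 CPM on 44% fat, against 0.27, 0.094 and 0.189 CPM on 10% fat, where 44% fat replicate 3 alone lay among those on 10% fat. DESeq2 called these 2 genes and RP24-344N22.3 with all libraries, and limma called Trpc2 (ENSMUSG00000100254, at 0, 0, 0.532 and 0 CPM on 44% fat, against 0.659, 1.63 and 3.18 CPM on 10% fat).

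Among genes with an official symbol and at least 1 CPM, the 5 with the smallest p and a higher estimate on 44% fat were Sncb, Ngfr, Nmnat3, Dlgap3 and P2ry14. Sncb (chr13:54758860-54766595, minus strand, in the authors' annotation), which encodes the synaptic protein beta-synuclein, was at 3.32, 4.19, 3.55 and 3.48 CPM on 44% fat, against 1.92, 2.69 and 1.91 CPM on 10% fat. Its log2 fold change was 0.74 (SE 0.17, p 0.000172, adjusted p 0.657 by the edgeR test). Ngfr (chr11:95568818-95587735, minus strand), the low-affinity neurotrophin receptor, was at 3.34, 3.26, 3.34 and 3.54 CPM on 44% fat, against 2.25, 2.63 and 2.21 CPM on 10% fat, a log2 fold change of 0.51 (SE 0.12). The libraries on 44% fat lay close together for Ngfr and clear of those on 10% fat. Nmnat3 (chr9:98287435-98420438, plus strand), which makes NAD in mitochondria, had the highest level of the 5, at 44.4, 49.3, 43.4 and 48.1 CPM on 44% fat, against 35.8, 39.1 and 38.6 CPM on 10% fat (log2 fold change 0.29, SE 0.08). Dlgap3, a scaffold of the postsynaptic density, averaged 8.94 ± 0.456 CPM on 44% fat (SD, n = 4) and 6.81 ± 0.524 CPM on 10% fat (n = 3). P2ry14, the receptor for UDP-glucose, averaged 2.81 ± 0.414 CPM on 44% fat (n = 4) and 1.88 ± 0.127 CPM on 10% fat (n = 3). Adjusted p for these 5 genes ran from 0.657 to 0.841.

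With a lower estimate on 44% fat, the 5 were Col2a1, Papl, Gatc, Ap3m1 and Lss. Col2a1 (chr15:97975602-98004695, minus strand), the type II collagen chain, was at 1.03, 0.724, 0.946 and 1.19 CPM on 44% fat, against 1.32, 1.66 and 1.56 CPM on 10% fat, a log2 fold change of -0.63 (SE 0.15). Papl, an acid phosphatase gene, was at 1.05, 0.828, 0.68 and 1.02 CPM on 44% fat, against 1.38, 1.94 and 1.24 CPM on 10% fat. These levels are low, and the gap between the nearest libraries of the diets was small for both. Gatc, a subunit of the mitochondrial enzyme that completes glutaminyl-tRNA, averaged 11.7 ± 0.869 CPM on 44% fat (SD, n = 4) and 14.1 ± 0.692 CPM on 10% fat (n = 3). Ap3m1, a subunit of the adaptor complex that sorts cargo to lysosomes, was at 35.7, 37.6, 37.9 and 38.4 CPM on 44% fat, against 43.1, 42.6 and 43.9 CPM on 10% fat. It had the tightest groups of the 10, with a log2 fold change of -0.21 (SE 0.06). Adjusted p ran from 0.657 to 0.706 for these 5 genes. All 10 were picked for a small p, so that their libraries do not overlap is a description and not a test.

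**Figure D3:**
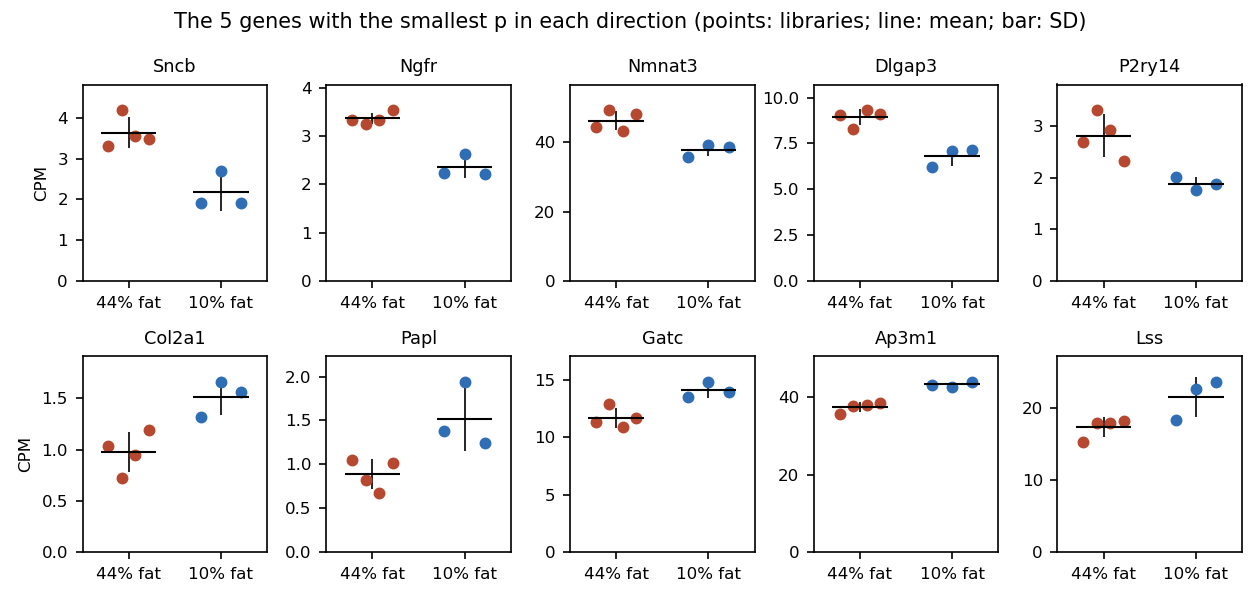
CPM per library for the 5 genes with the smallest p and a higher estimate on 44% fat (top row) and the 5 with a lower estimate (bottom row), 44% fat left and 10% fat right; points are libraries, the horizontal line is the mean and the vertical line the SD. The libraries of the diets do not overlap in any panel; Ap3m1 lies at 35.7 to 38.4 CPM on 44% fat and 42.6 to 43.9 CPM on 10% fat.

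Genes of the successive germ cell stages showed no member that passed the test. Among spermatogonial genes, Gfra1, the receptor for glial cell line-derived neurotrophic factor on stem cells, was at 10.3, 10.2, 10.4 and 10.9 CPM on 44% fat, against 9.77, 9.49 and 10.2 CPM on 10% fat. Zbtb16, a transcription factor of undifferentiated spermatogonia, was at 8.8, 10.1, 9.67 and 7.58 CPM on 44% fat, against 9.89, 11 and 7.57 CPM on 10% fat. The ranges of Zbtb16 overlapped, while for Gfra1 every library on 44% fat lay above every library on 10% fat. Of all genes, 2.39% lay wholly higher on 44% fat. The receptor gene Kit, which marks differentiating spermatogonia, was at 41.6 to 44.5 CPM on 44% fat and 43.5 to 49.5 CPM on 10% fat. The median log2 fold change was 0.036 over 13 tested genes of undifferentiated and 0 over 11 of differentiating spermatogonia, beside 0 over all genes tested.

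Of 25 tested genes of spermatocytes and meiosis, 19 estimates were lower and 6 higher on 44% fat (median -0.06, or -0.04 without 10% fat replicate 3), and all 25 intervals lay within 1.5-fold. Sycp3, a component of the synaptonemal complex, was at 150.2, 146, 138 and 139.8 CPM on 44% fat, against 162, 138 and 161 CPM on 10% fat (log2 fold change -0.10, SE 0.06). Meiob, which coats single-stranded DNA in meiotic recombination, was the only member with an unadjusted p under 0.05, at 13.5, 14.1, 13.3 and 14.1 CPM on 44% fat, against 15.6, 14.9 and 16.2 CPM on 10% fat. Its libraries did not overlap, but its adjusted p was 1 by the edgeR test. Of all genes, 4% had an unadjusted p under 0.05 and 2.9% lay wholly lower on 44% fat. The recombinase gene Dmc1 had an estimate of -0.17 (SE 0.10), and Spo11, which makes the breaks that start recombination, one of -0.08 (SE 0.05).

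Spermatid genes differed little between the diets. All 19 tested genes of round spermatids and all 19 of elongating spermatids had intervals within 1.5-fold, and both medians were 0.01. The acrosomal gene Acrv1 was at 154, 164, 161 and 161 CPM on 44% fat, against 166, 174 and 152 CPM on 10% fat. The protamine gene Prm1 was at 1122, 1239, 1301 and 1165 CPM on 44% fat, against 1412, 1287 and 1209 CPM on 10% fat (log2 fold change -0.11, SE 0.08). The range on 44% fat overlapped that on 10% fat for each. Akap4, a scaffold of the sperm tail, had an estimate of -0.002 (SE 0.06), and the histone-replacing gene Tnp1 one of -0.01 (SE 0.07). Of 27 tested genes of sperm motility and the flagellum, 0 had an unadjusted p under 0.05 by the edgeR test, and all 27 intervals lay within 1.5-fold.

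**Figure D4:**
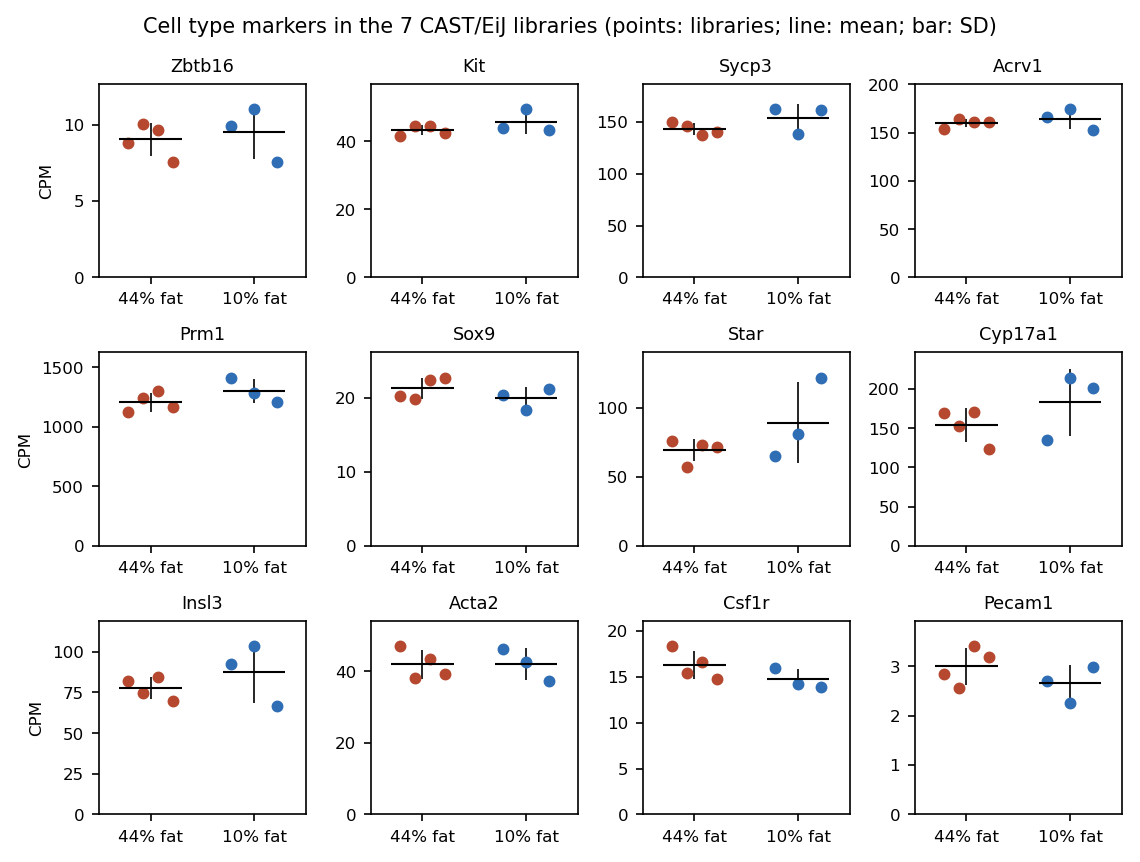
CPM per library for 12 marker genes of germ cells, Sertoli cells, Leydig cells, peritubular myoid cells, macrophages and endothelium, 44% fat left and 10% fat right; points are libraries, the horizontal line is the mean and the vertical line the SD. The ranges of the diets overlap in every panel, and Star on 10% fat runs from 64.8 to 122 CPM.

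In the somatic cells, 0 of 22 tested Sertoli cell genes had an unadjusted p under 0.05, and 21 intervals lay within 1.5-fold. Fshr, the receptor for follicle-stimulating hormone, was at 2.89, 2.02, 2.48 and 2.12 CPM on 44% fat, against 2.94, 2.85 and 2.26 CPM on 10% fat. Amh, which is largely silenced after puberty, was at 0.739 to 1.13 CPM on 44% fat and 0.629 to 1.28 CPM on 10% fat. The junction gene Gja1, which encodes connexin 43 of the blood-testis barrier, was at 84.9, 87.6, 90.8 and 75.5 CPM on 44% fat, against 95.3, 91.7 and 99.7 CPM on 10% fat (log2 fold change -0.17, SE 0.06, p 0.00611, adjusted p 1 by the edgeR test). Its libraries did not overlap, but it was chosen after its values were seen. Of all genes, 2.9% lay wholly lower on 44% fat. Of 18 barrier genes tested, only Gja1 and Tjp3 had an unadjusted p under 0.05, beside 4% of all genes. Tjp3 had an estimate of 0.97 (SE 0.32) at levels under 1 CPM.

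Leydig cell genes included 1 of 17 with an unadjusted p under 0.05, where 4% of all genes had one. Their summed level was 977, 903, 1010 and 830 CPM on 44% fat, against 927, 1060 and 1060 CPM on 10% fat, with 44% fat replicate 4 lowest. Star, which carries cholesterol into mitochondria for steroid synthesis, was at 75.7, 57.2, 72.9 and 71.3 CPM on 44% fat, against 64.8, 81.1 and 122 CPM on 10% fat. The estimate of -0.37 (SE 0.35) for Star rested on 10% fat replicate 3, and was -0.07 without it. Cyp17a1, which makes androgen precursors, was at 168, 153, 170.5 and 123 CPM on 44% fat, against 134, 214 and 200.5 CPM on 10% fat (log2 fold change -0.25, SE 0.18). The ranges overlapped for both. Insl3 had an estimate of -0.17 (SE 0.21), Hsd17b3, which makes the last step to testosterone, one of -0.13 (SE 0.11), and Lhcgr, the receptor for luteinising hormone, one of 0.02 (SE 0.14).

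Hsd3b1, an early enzyme of steroid synthesis, was the Leydig cell gene with the smallest p, at 72.5, 68.9, 72.2 and 74.8 CPM on 44% fat, against 68.2, 55.5 and 61.3 CPM on 10% fat. Every library on 44% fat lay above those on 10% fat, by a narrow gap to 10% fat replicate 1, where 2.39% of all genes lay wholly higher. The log2 fold change was 0.23 (SE 0.09, p 0.0255, adjusted p 1 by the edgeR test). In contrast, 13 of the 17 tested Leydig cell genes had a lower estimate, and the median was -0.10, or -0.05 without 44% fat replicate 4. The 95% intervals of 11 of the 17 lay within 1.5-fold. For Star the interval ran from -1.10 to 0.38 on the log2 scale, so that a fall beyond 2-fold lay within it.

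Macrophage genes had mostly higher estimates on 44% fat, 12 of 14 tested, with a median of 0.16, but 0 had an unadjusted p under 0.05 by the edgeR test. The complement gene C1qa, made by resident macrophages, was at 6.54, 5.95, 5.53 and 4.67 CPM on 44% fat, against 3.96, 4.73 and 4.47 CPM on 10% fat, an estimate of 0.38 (SE 0.23). Mrc1, the mannose receptor, was at 49.8 to 54.9 CPM on 44% fat and 53.5 to 59.3 CPM on 10% fat. The summed level of the list was 129, 127, 121 and 117 CPM on 44% fat, against 125, 114 and 123 CPM on 10% fat, so the ranges overlapped. Endothelial genes had a median of 0.09 over 12 tested, peritubular myoid and smooth muscle genes 0.08 over 11 (-0.008 without 10% fat replicate 3), and fibroblast and collagen genes -0.07 over 17 (-0.01 without 10% fat replicate 2), with 0 members of each at an unadjusted p under 0.05. Lymphocyte genes were near the limit of detection: Cd3e had at most 0.0929 CPM on 44% fat and 0.15 CPM on 10% fat.

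Genes of cholesterol synthesis and sterol regulation were of interest because sterols feed steroid synthesis and cells restrain their synthesis when sterol is plentiful. Of 30 tested, 26 had a lower and 4 a higher estimate on 44% fat, with a median of -0.08 against 0 over all genes. At an unadjusted p under 0.05, 4 were lower (Lss, Insig1, Idi1 and Hmgcs1) and 1 higher (Abcg1), beside 1.85% lower and 2.16% higher of all genes. None passed adjustment. Both the count of 4 and the median depended on single libraries. Without 10% fat replicate 1 they were 10 and -0.10, and without 10% fat replicate 3 they were 2 and -0.02.

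Lss, lanosterol synthase, which closes the sterol ring system, was at 15.3, 17.9, 17.9 and 18.2 CPM on 44% fat, against 18.4, 22.6 and 23.7 CPM on 10% fat. The highest value on 44% fat was just under the lowest on 10% fat, and the log2 fold change was -0.32 (SE 0.09, p 0.000846, adjusted p 0.706 by the edgeR test). Idi1, which isomerises the building block of isoprenoids, was at 62.4, 65.7, 63.1 and 65.5 CPM on 44% fat, against 67.2, 69.5 and 85.5 CPM on 10% fat (-0.21, SE 0.08). Insig1, which holds sterol-sensing factors in the endoplasmic reticulum, was at 9.27, 11.5, 9.96 and 9.03 CPM on 44% fat, against 9.59, 12.3 and 17.9 CPM on 10% fat (-0.43, SE 0.14). Hmgcs1, which makes the precursor of mevalonate, was at 90.7, 94.5, 92 and 95.6 CPM on 44% fat, against 90.5, 99.6 and 120 CPM on 10% fat (-0.15, SE 0.06). In each of these 3, 10% fat replicate 3 was the highest library. Abcg1, which exports cholesterol from cells, was at 2.43, 2.22, 2.78 and 2.21 CPM on 44% fat, against 2.16, 1 and 1.46 CPM on 10% fat, an estimate of 0.64 (SE 0.21).

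Other enzymes of the pathway ranged from estimates near 0 to lower ones with wide intervals. Sqle, which oxidises squalene, had an estimate of -0.01 (SE 0.05), and Fdft1, which makes squalene, one of 0.00 (SE 0.05). Msmo1, which removes methyl groups from sterols, had -0.40 (95% interval -0.87 to 0.07), Tm7sf2, a sterol reductase, -0.33 (-0.67 to 0.01), and Sc5d, a sterol desaturase, -0.25 (-0.55 to 0.04). Hsd17b7 was at -0.25 (-0.59 to 0.09) and Mvd, an enzyme of the mevalonate steps, at -0.24 (-0.57 to 0.08). Of the 30 intervals, 24 lay within 1.5-fold.

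The promoters of Lss and Hmgcs1 are shown because both genes lie in this pathway and differ in the motifs it is known for. The sequences are from RefSeq on GRCm38.p6, 250 bases before to 50 after the annotated start, and capitals mark matches on either strand to the CCAAT box (CCAAT, or ATTGG on the other strand) and to the sterol regulatory element searched as TCACNCCAC. The Lss promoter is chr10:76531355-76531654, plus strand, and the Hmgcs1 promoter chr13:119690101-119690400, plus strand.
Lss: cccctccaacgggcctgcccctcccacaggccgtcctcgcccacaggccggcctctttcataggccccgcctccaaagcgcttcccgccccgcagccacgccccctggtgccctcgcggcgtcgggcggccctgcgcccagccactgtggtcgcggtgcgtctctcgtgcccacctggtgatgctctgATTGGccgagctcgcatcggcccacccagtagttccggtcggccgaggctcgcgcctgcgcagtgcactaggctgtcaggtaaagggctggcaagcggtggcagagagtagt
Hmgcs1: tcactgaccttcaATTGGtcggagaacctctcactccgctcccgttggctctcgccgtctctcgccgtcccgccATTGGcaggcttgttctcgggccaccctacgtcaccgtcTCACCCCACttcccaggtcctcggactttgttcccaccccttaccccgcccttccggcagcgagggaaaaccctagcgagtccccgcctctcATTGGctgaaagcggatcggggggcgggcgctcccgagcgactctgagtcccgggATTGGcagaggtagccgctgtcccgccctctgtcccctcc
Lss held 1 CCAAT box and 0 sterol elements in this window, and Hmgcs1 held 4 CCAAT boxes and 1 sterol element. Of 22 genes of the list with a promoter in the table, 1 held the sterol element and 18 the CCAAT box. Among all 32851 promoters the shares were 1.24% and 37.4%. A list gene counted if any of its promoters matched, while the shares are per promoter, so the units differ. A match is a run of letters and not a shown binding site.

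Most genes of fatty acid metabolism differed little between the diets. Intervals lay within 1.5-fold for 28 of 32 tested genes of oxidation and 26 of 29 of uptake and synthesis. Of 32 tested genes of fatty acid oxidation and targets of the nuclear receptor PPARA, 1 had an unadjusted p under 0.05. The share over all genes was 4%. Angptl4, a target of that receptor that inhibits lipoprotein lipase, was at 3.75, 3.88, 6.06 and 3.86 CPM on 44% fat, against 2.82, 2.57 and 3.72 CPM on 10% fat (log2 fold change 0.52, SE 0.18, p 0.00775, adjusted p 1). All libraries on 44% fat lay above those on 10% fat, by a narrow gap to 10% fat replicate 3, where 2.39% of all genes lay wholly higher. Cpt1b, which admits fatty acids to mitochondria, was at 276, 264, 271 and 277 CPM on 44% fat, against 276, 283 and 268 CPM on 10% fat, an estimate of -0.02 (SE 0.04). Hadha, of the trifunctional protein, had an estimate of 0.02 (SE 0.05), and Pdk4, which restrains glucose use, one of 0.08 (SE 0.21).

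Over 29 tested genes of fatty acid uptake and synthesis the median was -0.01, and 0 had an unadjusted p under 0.05. Fasn, fatty acid synthase, was at 257, 216, 259.8 and 232 CPM on 44% fat, against 216, 237 and 225 CPM on 10% fat. Scd1, the stearoyl desaturase, was at 19.2, 51.9, 20.4 and 17.4 CPM on 44% fat, against 25.9, 40.2 and 47.2 CPM on 10% fat. As with the adipose tissue genes, 44% fat replicates 1, 3 and 4 lay below the libraries on 10% fat, and replicate 2 did not. The desaturase genes Fads1 and Fads2 had estimates of -0.24 (SE 0.15) and -0.22 (SE 0.19). Plin2, which coats lipid droplets, was at 52, 44.8, 49 and 44.8 CPM on 44% fat, against 39, 46.9 and 42.8 CPM on 10% fat, and Acly, which makes cytosolic acetyl-CoA, at 70.8 to 75 CPM on 44% fat and 76.2 to 85.3 CPM on 10% fat. The ranges overlapped for Plin2 and did not for Acly, where 2.9% of all genes lay wholly lower on 44% fat.

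Adipose tissue genes had the lowest median of all 39 lists, -0.64 over 15 tested of 17 listed. It was -0.82 without 44% fat replicate 2 and -0.38 without 10% fat replicate 3. At an unadjusted p under 0.05, 5 were lower on 44% fat (Pck1, Lpl, Adipoq, Cfd and Retn) and 0 higher, beside 1.85% lower and 2.16% higher of all genes, and each had an adjusted p of 1 by the edgeR test. The estimate was -1.78 (SE 0.94) for Car3, -1.20 (SE 0.53) for Lpl and -1.79 (SE 0.81) for Cfd. Without 44% fat replicate 2, the count was 9, and the estimates were -3.49 for Car3, -1.89 for Lpl and -3.49 for Cfd, with adjusted p of 0.793, 0.739 and 0.55. Without any 1 of 44% fat replicate 1, 44% fat replicate 4 and 10% fat replicate 3, the count was 0.

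Not every gene linked to fat cells shared this order. Adipoq, which encodes adiponectin, was at 4.52, 5.51, 5.65 and 4.53 CPM on 44% fat, against 4.65, 7.49 and 6.82 CPM on 10% fat. Plin1 was at 5.47, 5.69, 5.47 and 5.78 CPM on 44% fat, against 4.2, 6.86 and 8.06 CPM on 10% fat, and Thrsp had an estimate of 0.01 (SE 0.19). Their ranges overlapped. Lep, which encodes leptin, was at 0.318, 0.879, 0.266 and 0.493 CPM on 44% fat, against 0.3, 0.689 and 0.674 CPM on 10% fat. The leptin receptor gene Lepr was at 2.89 to 4.03 CPM on 44% fat and 3.12 to 4.1 CPM on 10% fat. The summed level of the adipose list was 72, 99.2, 77.9 and 60.4 CPM on 44% fat, against 82.5, 97.4 and 120 CPM on 10% fat, and 10% fat replicate 3, highest here, was also highest for Star, Lss, Hmgcs1, Idi1, Insig1, Msmo1, Sc5d and Hsd17b7. These genes were named because they share this order, and other members of their lists did not. Cyp51 and Insl3 were lowest of all 7 libraries in 10% fat replicate 3, at 112.5 and 66.6 CPM. Cyp17a1, Cyp11a1 and Tm7sf2 were highest in 10% fat replicate 2. The part of adipose tissue in the values of any of these genes was not tested. Red blood cell genes also had lower estimates on 44% fat, and their part was not tested either.

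In the remaining pathways 0 genes passed adjustment, and the counts at an unadjusted p under 0.05 were 0 to 2 a list, where 4% of all genes had one. In insulin, IGF and mTOR signalling this was Igf1 alone of 29 tested, at 21.4, 26.5, 23.2 and 23.9 CPM on 44% fat, against 31.2, 25.6 and 30.6 CPM on 10% fat (log2 fold change -0.30, SE 0.14). The insulin receptor gene Insr had an estimate of 0.03 (SE 0.08). In antigen presentation these were H2-Q6 and Psmb9 of 22, both under 1 CPM. H2-Q6, a class I gene with close relatives between which reads may be split, was at 0.133, 0.155, 0.207 and 0.29 CPM on 44% fat, against 0.479, 0.376 and 0.566 CPM on 10% fat, an estimate of -1.34 (SE 0.37, adjusted p 0.712 by the edgeR test). Among inflammatory genes it was the chemokine gene Cxcl10 of 13, at 1.45, 1.34, 1.54 and 1.28 CPM on 44% fat, against 0.929, 0.815 and 0.862 CPM on 10% fat (0.69, SE 0.23). Both groups of libraries were tight for Cxcl10 and did not overlap, where 2.39% of all genes lay wholly higher on 44% fat. In the interferon response it was Ifi44 alone of 27, under 1 CPM, while 19 estimates were lower and the median was -0.15. On leaving out each library in turn that median lay nearer 0, from -0.125 to -0.063, the last without 10% fat replicate 3.

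Of 19 circadian clock genes, Npas2, a partner of the clock factor Arntl, had an unadjusted p under 0.05, at 3.1, 3.54, 3.52 and 3.66 CPM on 44% fat, against 2.49, 2.82 and 2.53 CPM on 10% fat (0.40, SE 0.16). Per1 was at 191, 188, 178 and 206 CPM on 44% fat, against 199, 206 and 163 CPM on 10% fat, and the output gene Dbp had an estimate of -0.15 (SE 0.15). The time of day of collection was not in the labels used here. Among piRNA pathway genes, Tdrkh of 20 tested was at 62.7, 64.3, 61 and 65.5 CPM on 44% fat, against 69, 67 and 74.1 CPM on 10% fat (-0.15, SE 0.06). Piwil2, which binds piRNAs, had an estimate of 0.01 (SE 0.04). Genes of glycolysis (26 tested), nuclear genes of oxidative phosphorylation (36), antioxidant genes (30), heat shock genes (15) and retinoic acid handling (20) had 0 members at an unadjusted p under 0.05 and medians between -0.02 and 0.03.

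The mitochondrially encoded mt-Co2 was at 3.81, 2.87, 1.92 and 1.95 CPM on 44% fat, against 1.53, 1.44 and 2.32 CPM on 10% fat, an estimate of 0.66 (SE 0.23, adjusted p 1). The ranges overlapped, and how reads from copies of mitochondrial sequence in the nuclear genome were counted was not tested, so the value is uncertain. The other 12 mitochondrially encoded genes had an unadjusted p of at least 0.05. Nnt, a mitochondrial enzyme that makes NADPH, was at 96.1, 95.7, 99.3 and 88.6 CPM on 44% fat, against 93.5, 96.8 and 95.4 CPM on 10% fat, an estimate of -0.004 (SE 0.05). Globin genes, a sign of blood in the tissue, varied between libraries within both diets, and 7 of the 8 tested red blood cell genes had a lower estimate on 44% fat (median -0.44, beside 0 over all genes). Hba-a2 was at 8.2, 18.1, 15 and 20.5 CPM on 44% fat, against 12.9, 28.6 and 19.4 CPM on 10% fat (log2 fold change -0.41, SE 0.37).

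**Figure D5:**
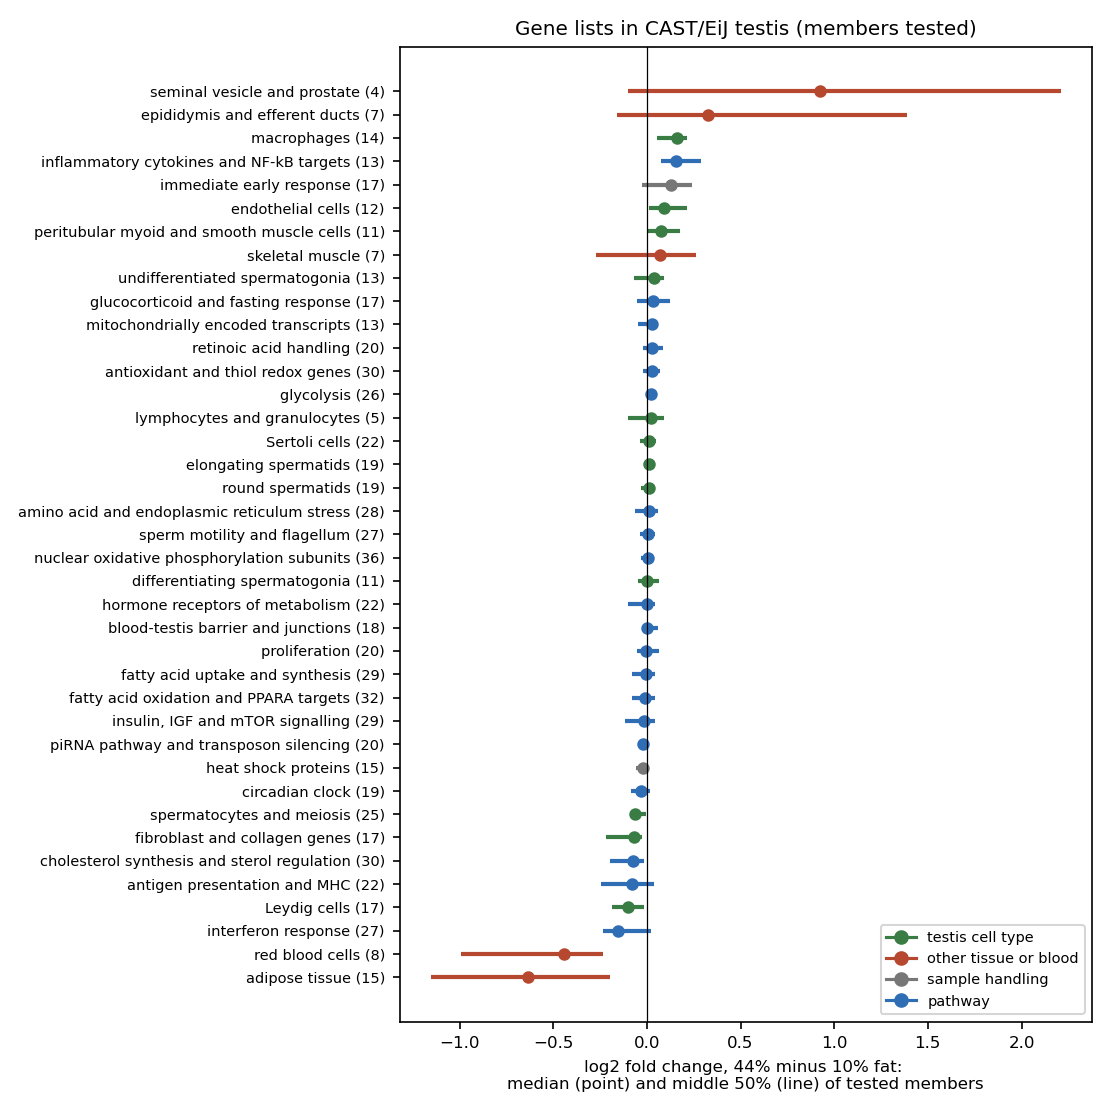
Median log2 fold change of 44% over 10% fat for the tested members of each of 39 gene lists (number tested in brackets), with a line over the middle 50% of members; colours give the kind of list. Medians of testis cell types and pathways run from -0.15 (interferon response) to 0.16 (macrophages), while the adipose list lies at -0.64 and the short lists of red blood cells (-0.44), epididymis (0.33) and seminal vesicle (0.92) lie far from 0.

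The diet effect in CAST/EiJ was compared with that in the other strains by testing the difference itself. Against C57BL/6J, 0 of 22873 genes (0%) passed (edgeR quasi-likelihood test, Benjamini-Hochberg adjustment), the smallest adjusted p was 0.597, and 905 (3.96%) had an unadjusted p under 0.05. Against NZO/HlLtJ, 0 (0%) passed, the smallest adjusted p was 0.336, and 1656 (7.24%) had an unadjusted p under 0.05. DESeq2 called 0 genes against C57BL/6J and 7 against NZO/HlLtJ. Without 44% fat replicate 3, 1 gene (Gm3095) passed against C57BL/6J and 2 (Gm3095 and Mark1-ps3) against NZO/HlLtJ, and without the NZO/HlLtJ 10% fat replicate 4, 2 (Serpina3n and C4b) passed against NZO/HlLtJ. For the genes described above, Sncb had a diet estimate of 0.74 in CAST/EiJ, against -0.14 for C57BL/6J and -0.04 for NZO/HlLtJ, and a difference of 0.89 (SE 0.27, adjusted p 1) from C57BL/6J and 0.78 (SE 0.27, adjusted p 0.657) from NZO/HlLtJ. Lss had -0.32 in CAST/EiJ, against -0.07 for C57BL/6J and -0.06 for NZO/HlLtJ, with differences of -0.25 (SE 0.12) and -0.26 (SE 0.12). Both genes were chosen for their values in CAST/EiJ, so these differences start from a large estimate there.

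For adipose tissue genes, too, 0 differences between strains passed the test. Car3 had a diet estimate of -1.78 in CAST/EiJ, against 0.71 for C57BL/6J and -0.63 for NZO/HlLtJ, and the difference from C57BL/6J was -2.49 (SE 1.39, adjusted p 1). Lpl had -1.20 in CAST/EiJ, against 0.19 for C57BL/6J and -0.09 for NZO/HlLtJ. Star was estimated at -0.37 in CAST/EiJ, against -0.09 for C57BL/6J and -0.32 for NZO/HlLtJ, and Cyp17a1 at -0.25 in CAST/EiJ, against -0.36 for C57BL/6J and -0.20 for NZO/HlLtJ.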

How the data were processed

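Bulk polyA RNA of 23 mouse testis samples was sequenced, and 7 of the libraries were from CAST/EiJ. The authors deposited estimated counts per gene, of which 22.6% are more than 0.001 from a whole number, and log2 values from a variance-stabilising transformation. They also deposited an annotation table with gene positions, other values that were used only for coordinates. The GRCm38 build and DESeq2 are named per the submitters' processing notes. The sources used here name no aligner, counting tool or treatment of sequence differences between strains.

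Estimated counts were rounded, scaled by TMM and filtered with filterByExpr on 6 groups, which left 22873 of 28861 genes. All 23 libraries were fitted together with edgeR 4.0.16 (robust quasi-likelihood F test) in R 4.3.3, with a mean per strain and diet, and p-values were adjusted by Benjamini-Hochberg over all genes tested at a threshold of 0.05. Fold changes are 44% over 10% fat, with 95% intervals. Floors of 3 counts cover counting error only. Alternatives were DESeq2 1.42.0, limma 3.58.1 on the deposited log2 values, RLE scaling, other filters, a term for runs of library ID numbers in the labels, CAST/EiJ alone, a limit of 1.5-fold, and leaving out libraries. The test was also run on simulated counts drawn independently for each library. These held no library with transcripts of another tissue, so the run says nothing on such libraries.

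Of 788 genes in 39 gene lists, 719 were tested, 31 were filtered out for low counts and 38 were not in the count table. Genes were named by rule: the 5 of smallest p per direction with an official symbol and at least 1 CPM, 14 genes named always (Star, Cyp17a1, Insl3, Lhcgr, Hsd17b3, Fshr, Lep, Adipoq, Dbp, Per1, Prm1, Sycp3, Zbtb16 and Nnt), and members of neighbouring tissue lists reaching 1 CPM. Other named genes were chosen after their values were seen. Some items are not reported here. The members and lists were chosen with earlier results of these data known.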

Additional observations from a re-analysis of the deposited data

Results flagged for a closer look

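Values of the 4 libraries on 44% fat were searched for 1 library far from the other 3; groups of 3, such as the libraries on 10% fat, were not searched. Of 90 values searched, 11 stood apart. The limit used is meant to flag about 1 in 20 groups of independent, normally distributed values. The values searched share genes and libraries, as Crisp1 does with the epididymis sum. So the count of 11 cannot be read as more than chance gives. Of these, 6 were in 44% fat replicate 2, 3 in replicate 1, 2 in replicate 4 and 0 in replicate 3.

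In 44% fat replicate 2, Crisp1 was at 99 CPM against at most 0.0796 CPM in the other 3 libraries, and the epididymis list summed to 104 CPM against 3.55 to 4.55 CPM. Fabp4 was at 7.58 CPM against 1.54 to 2.22 CPM, and Car3 at 7.53 CPM against 0.517 to 1.18 CPM. Its first principal component score was 19.6, against -10.9 to -7.15, and its summed level of piRNA pathway genes was 5490 CPM, against 5650 to 5670 CPM.

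The library of 44% fat replicate 1 had the largest total, 78.7 M estimated counts against 35.1 to 39.4 M. Its Lss level was 15.3 CPM against 17.9 to 18.2 CPM, and its summed level of glucocorticoid and fasting response genes 529 CPM against 557 to 561 CPM. In 44% fat replicate 4, the fatty acid transporter gene Cd36 was at 28 CPM against 38.9 to 40.7 CPM, and Atp2a1, the calcium pump of skeletal muscle, at 0.697 CPM against 0.503 to 0.517 CPM.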

How the results depend on the processing

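No paired analysis was possible because the labels give no replicate numbers and those used here only follow accession order. The library ID numbers fall into 3 runs, each with both diets; whether these are batches is not stated, and with the run as a term 0 genes were called and 849 had an unadjusted p under 0.05. In the diet comparison, genes called were 0 under all alternatives but 3: 2 without 44% fat replicate 3 (range 0 to 2 on leaving out 1 library), 3 with DESeq2 and 1 with limma. Genes at an unadjusted p under 0.05 numbered 778 to 1275 on leaving out 1 library, against 916, and 515 with a minimum of 1 CPM. The difference from C57BL/6J gave 0 to 1 calls on leaving out 1 library, that from NZO/HlLtJ 0 to 2, and 7 with DESeq2. Adipose genes lower at an unadjusted p under 0.05, 5 in the report, numbered 0 to 9 on leaving out 1 library, 2 with CAST/EiJ alone (with or without its own scaling and filter), 3 with a minimum of 1 CPM and 3 with DESeq2. Cholesterol genes, 4 in the report, numbered 2 to 10 on leaving out 1 library, 2 with CAST/EiJ alone under its own scaling and filter, and 2 without 44% fat replicate 2 and 10% fat replicate 3. The cause was not tested.

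Of 824 values of 49 named genes under alternatives, 794 kept their direction, 30 reversed and 0 passed the threshold. Leaving out 1 library gave log2 fold changes of -0.11 to 0.17 for Lhcgr, -0.085 to 0.076 for Per1, -0.21 to 0.05 for Zbtb16, -0.026 to 0.027 for Nnt, -0.89 to 1.92 for Pax8, -0.26 to 0.17 for Pax2, -0.157 to 0.002 for Svs5, -0.416 to 0.019 for Plin1, -0.027 to 0.083 for Cidea, -0.10 to 0.13 for Thrsp, -0.182 to 0.012 for Cd36 and -0.018 to 0.036 for Bpgm. Without 44% fat replicate 2 and 10% fat replicate 3, a pair chosen after seeing the data, Star was 0.008, Per1 -0.078, Crisp1 -1.70, Pax8 -0.55 and Plin1 0.012. Nnt was 0.002 with CAST/EiJ alone under its own scaling and filter and 0.001 with a minimum of 1 CPM. Thrsp was -0.021 with a term for the library ID run and -0.003 with limma.

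The SD used for list medians is the spread between replicates of a diet for that list, so it differs by list. This SD was largest for adipose tissue, at 0.462, so its range of -0.825 to -0.377 on leaving out 1 library did not count as moved. Of 429 list medians under alternatives, 21 moved by over 1 SD, all on leaving out 1 library. Their ranges were -0.017 to 0.045 for differentiating spermatogonia, -0.058 to 0.99 for epididymis, -0.011 to 1.34 for seminal vesicle, -0.69 to -0.19 for red blood cells, 0.044 to 0.182 for immediate early genes, -0.026 to 0.008 for heat shock proteins, -0.067 to 0.004 for fatty acid oxidation, -0.026 to -0.001 for fatty acid uptake and synthesis, -0.125 to -0.063 for interferon response, -0.193 to -0.019 for antigen presentation, -0.047 to 0.006 for the circadian clock, 0.011 to 0.081 for retinoic acid handling, -0.017 to 0.02 for sperm motility and -0.045 to -0.005 for hormone receptors. Depth limits the genes under 1 CPM, whose intervals were wide.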

Other observations

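Hormone receptors of metabolism had 0 of 22 tested genes with an unadjusted p under 0.05 by the edgeR test, and 19 intervals lay within 1.5-fold. The adiponectin receptor gene Adipor1 was at 97, 87.7, 98.7 and 88.9 CPM on 44% fat, against 82.1, 93.5 and 88.7 CPM on 10% fat. The oestrogen receptor gene Esr1 had an estimate of -0.005 (SE 0.09). The ranges of the diets overlapped for both.

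Among stress and handling genes, 1 of 17 glucocorticoid and fasting genes had an unadjusted p under 0.05, beside 4% of all genes. This was Cebpb, a transcription factor induced by glucocorticoids and cytokines. It was at 0.345, 0.466, 0.621 and 0.61 CPM on 44% fat, against 0.27, 0.313 and 0.27 CPM on 10% fat (log2 fold change 0.81, SE 0.40, adjusted p 1). Fkbp5, a target of the glucocorticoid receptor, was at 51.4 to 52.8 CPM on 44% fat and 52.1 to 56 CPM on 10% fat. Of 28 genes of amino acid and endoplasmic reticulum stress, 0 had an unadjusted p under 0.05, and Atf4, their main transcription factor, had an estimate of -0.07 (SE 0.07). Immediate early genes had 0 of 17, with Egr1 at 2.96, 3.9, 3.73 and 3.28 CPM on 44% fat, against 3.57, 4.45 and 2.69 CPM on 10% fat.

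In the retinoic acid list, Cyp26b1, which degrades retinoic acid in peritubular cells of the testis, was at 78.5, 70, 79.4 and 76.7 CPM on 44% fat, against 70.1, 69 and 69.5 CPM on 10% fat (log2 fold change 0.13, SE 0.07, p 0.08, adjusted p 1 by the edgeR test). The ranges met at 70 CPM. Genes of seminal vesicle and prostate summed to 6.32, 6.26, 6.54 and 5.28 CPM on 44% fat, against 6.92, 6.99 and 6.52 CPM on 10% fat, and skeletal muscle genes to 9.31 to 9.82 CPM on 44% fat and 8.93 to 9.47 CPM on 10% fat.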
